A study of Bos taurus with 14 samples.

Results

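CXCR4 and PTAFR are cell-surface receptors that guide granulocytes, and their transcripts were followed here in bovine cells given interferon tau (IFNT), the type I interferon of the ruminant conceptus. They are 2 of the 6714 genes that a probe of the array named, and were chosen by name with earlier results of these data known. Probe ABR222 stood for CXCR4 and probe A_73_113952 for PTAFR, each the 1 probe of its gene among 15208 non-control probes. There were 4 granulocyte samples with IFNT, 4 granulocyte samples with PBS (phosphate-buffered saline, the vehicle), 3 samples of bovine endometrial stromal cells (BES) with IFNT and 3 BES samples with PBS. Incubation lasted 2 h in all 14 samples, and the labels put IFNT at 1 mg/mL, a dose whose unit may be an error. They give no breed, age, sex, pregnancy stage or source animal, and do not state whether replicates were separate animals or cultures, so the p-values measure only the spread between these samples, which may be technical.

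CXCR4 is the G protein-coupled receptor of the chemokine CXCL12. In mouse and human it holds neutrophils in the bone marrow and draws ageing neutrophils back to it, and it is taken from the surface by kinases, arrestins and the ubiquitin ligase ITCH. PTAFR is the G protein-coupled receptor of platelet-activating factor (PAF), an ether phospholipid that primes neutrophils, attracts them and makes them adhere.

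The part of each probe shown here tells which stretch of transcript was read, and the capitals mark the motif ATTTA, the core of AU-rich elements found in many short-lived messages. Bases 31 to 60 of the CXCR4 probe and bases 1 to 30 of the PTAFR probe are printed 5′ to 3′ as deposited.
CXCR4: ggtttaattgacttATTTAtataaatactt
PTAFR: cgcctATTTAaagacctaaactgtaaatga
Each 60-base probe held the motif 1 time, on the deposited strand, the only one searched, and 8.23% of all 15208 probes held it. These stretches were chosen after the sequences had been read, and a match is a description of the probe only. A and T made up 80% of the CXCR4 probe, more than in 99.7% of probes, and 55% of the PTAFR probe, against a median of 56.7%. The longest run of bases that either shared with any other probe of the array was 15 bases for CXCR4 and 13 bases for PTAFR.

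The granulocyte samples carried the markers of their label. All 11 neutrophil marker genes with a probe were well above background (the scanner software's own call) on every granulocyte array, whereas CXCR1, CATHL1, CATHL2, FCGR3A and ITGAM were so on no BES array. The neutrophil markers S100A12, MMP9, LTF, CATHL6 and ITGB2 were well above background on all 6 BES arrays too. All 9 stromal markers were well above background in BES, and COL1A2, COL3A1, LUM and PDGFRA were so on no granulocyte array. The other stromal markers COL1A1, THY1, FN1 and VIM were well above background on all 8 granulocyte arrays, and COL1A1 rose with IFNT there (log2 change 1.42 ± 0.09, adjusted p = 5e-06). BES arrays also had 4 of 5 epithelial markers well above background, KRT8, KRT19 and CDH1 among them, while EPCAM was not. Between 66.4% and 70.9% of probes were well above background on granulocyte arrays and between 71.6% and 76.1% on BES arrays, and arrays of 1 group correlated at 0.991 to 0.996 (Pearson's r across probes, which are not independent). The granulocyte IFNT samples filled array row 2 of their slide and the PBS samples array row 1, so row and treatment cannot be told apart in granulocytes.

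CXCR4 was among the most lowered transcripts of the granulocytes given IFNT. Its processed intensity was 10960, 13080, 12960 and 11500 with IFNT, against 41040, 57650, 59280 and 52030 with PBS. Relative to the 75th percentile of each array, this was 9.14, 10.1, 11 and 9.85 times with IFNT and 40.7, 39.2, 48.8 and 34.9 times with PBS. The IFNT arrays lay close together, and the lowest PBS array stood far above the highest of them. On the log2 scale, with the 75th percentile of each array at 0, the level averaged 3.32 ± 0.11 with IFNT and 5.34 ± 0.20 with PBS (SD, n = 4 each). The fitted change of -2.02 ± 0.10 (log2, IFNT over PBS, SE) is a level 4.06-fold lower with IFNT, with an adjusted p of 9.9e-07 in limma.

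PTAFR also fell, by a smaller amount. Its processed intensity was 724.1, 735.8, 770.6 and 753.3 with IFNT, against 853.3, 1393, 1140 and 1288 with PBS. The log2 levels were -0.73, -0.82, -0.62 and -0.63 with IFNT and -0.24, -0.08, -0.09 and -0.21 with PBS. Again no IFNT array reached any PBS array. The means were -0.70 ± 0.09 with IFNT and -0.16 ± 0.08 with PBS (SD, n = 4 each). The fitted change was -0.54 ± 0.06 (log2, SE), 1.46-fold lower with IFNT, with an adjusted p of 0.00018 in limma. RNA came from whole samples, so fewer cells carrying a transcript and less of it per cell cannot be told apart.

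**Figure D1:**
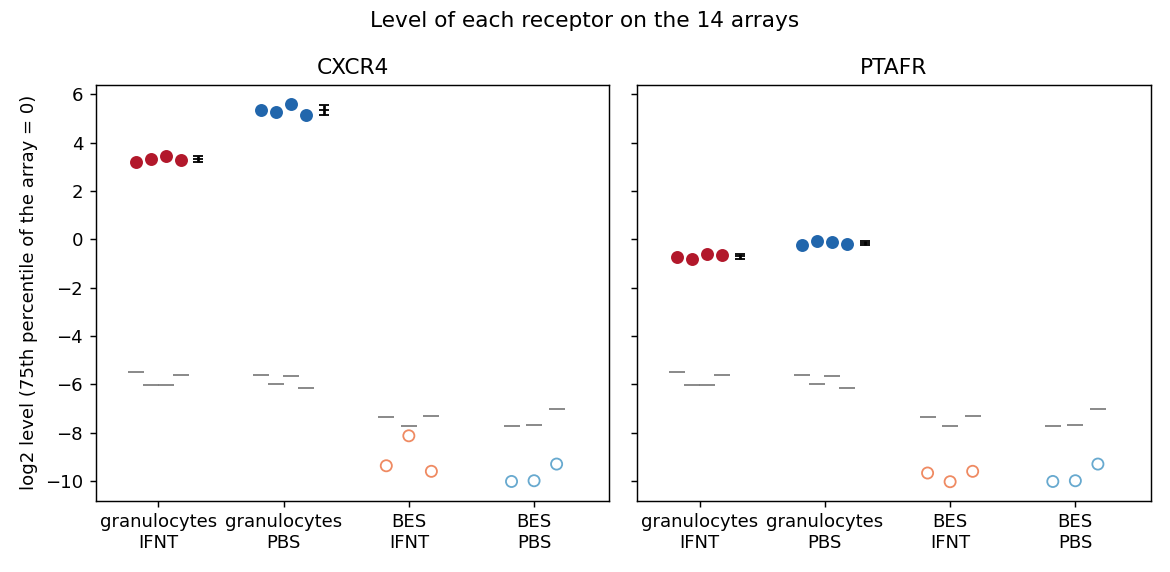
Log2 level of CXCR4 (left) and PTAFR (right) on each of the 14 arrays, with the 75th percentile of the array at 0; filled points were well above background, open points were not, grey dashes mark the lowest level called well above background on that array, and black bars give mean and SD. Both receptors were lower on every IFNT than on every PBS granulocyte array, and no BES point reached its dash.

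Both receptors were called lower in granulocytes, where 27.4% of the 10379 tested probes were called lower and 44.6% were called in either direction at an adjusted p under 0.05. Groups that do not overlap were also common, with 26.8% of tested probes lower with IFNT in that way. A call by itself therefore does not set either gene apart, but their sizes differed. CXCR4 ranked 8 of 10379 from the most lowered probe, and it is 1 of the 100 probes (0.963%) called at least 2-fold lower. PTAFR ranked 551, with 5.3% of probes lowered more. Both genes were chosen with earlier results of these data known, so neither the ranks nor the p-values come from a blind choice. In an exact permutation test over the 8 samples, two-sided, each gene gave p = 0.0286, the smallest that 70 arrangements allow.

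The fall of CXCR4 was larger than that of PTAFR within the same arrays. The log2 level of CXCR4 minus that of PTAFR averaged 4.02 ± 0.11 with IFNT and 5.50 ± 0.17 with PBS (SD, n = 4 each). The difference of -1.48 is 2.79-fold, with an exact permutation p of 0.0286, two-sided. Pairing samples by replicate number took this p to 0.12, the smallest value that such a design allows.

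**Figure D2:**
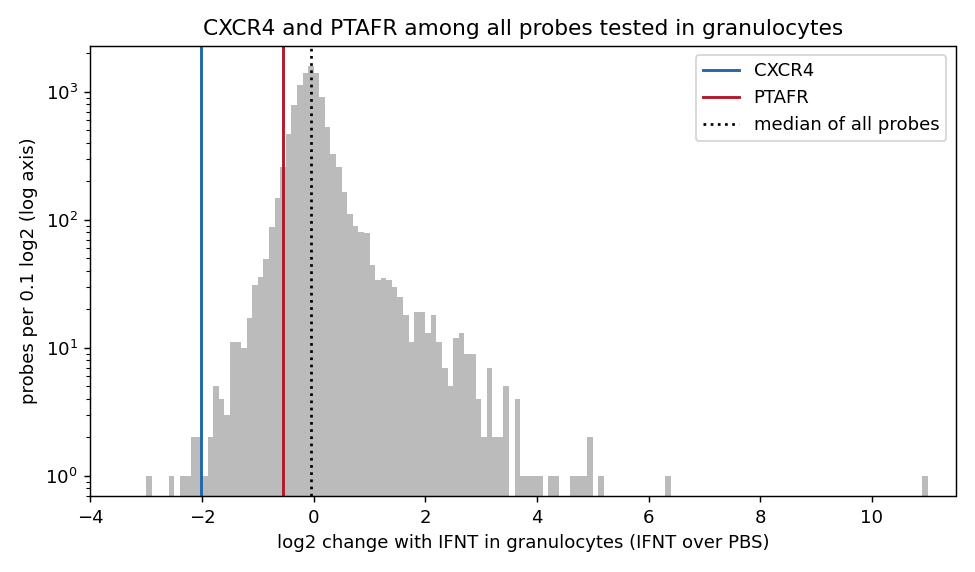
Number of probes (log axis) at each log2 change with IFNT in granulocytes (IFNT over PBS, 0.1 log2 per bar) for the 10379 tested probes. The CXCR4 line at -2.02 lies in the sparse lower tail, the PTAFR line at -0.54 on its shoulder, and the dotted line marks the median of all probes, -0.05.

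Some technical values moved with the CXCR4 result. All 4 of its PBS values were taken from the scanner's low-gain scan and scaled up, and none of its IFNT values were, a pattern shared by 17 probes. The low-gain values on the granulocyte arrays began at an intensity of 19650 and the other values ended at 49830. No CXCR4 spot was saturated or flagged, and the part of the change of scan in the result was not tested. PTAFR was read from the same scan on every array.

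Markers of other blood cells were present in the granulocyte samples, and some moved with treatment. Over all 4964 genes tested in granulocytes, 18.1% were called higher and 26.3% lower, so calls among markers were to be met in any list. The summed level of 10 T and NK cell markers (relative to the 75th percentile) was 5 to 5.3 with IFNT and 5.09 to 5.27 with PBS, and that of 4 B cell markers 2.53 to 2.64 with IFNT and 2.35 to 2.47 with PBS. The 7 monocyte and macrophage markers summed to 26.7 to 27.7 with IFNT and 28.4 to 30.9 with PBS, but 4 of them rose and 2 fell, with a median log2 change of 0.41. Those that rose were CD14 (1.03 ± 0.07), C1QB (0.47 ± 0.05), C1QC (0.41 ± 0.04) and MRC1 (0.60 ± 0.19), and those that fell were CD68 (-0.36 ± 0.05) and CD36 (-1.40 ± 0.16, well above background on 1 of 4 IFNT arrays). The 2 eosinophil markers, CCR3 and ALOX15, summed to 10.6 to 12.1 with IFNT and 13.7 to 14.5 with PBS. The 11 neutrophil markers summed to 672 to 741 with IFNT and 692 to 857 with PBS, and 4 rose and 2 fell. CATHL6 (1.54 ± 0.05), FCGR3A (1.34 ± 0.09), CATHL2 (1.33 ± 0.09) and LTF (1.00 ± 0.06) rose, and MMP9 (-0.56 ± 0.05) and CXCR1 (-0.23 ± 0.05) fell. For 5 platelet and erythroid markers the sums were 2.41 to 2.51 with IFNT and 2.43 to 2.68 with PBS, with ITGB3 and HBB at background. Such sums can hide single genes. The T and NK marker NKG7 (0.93 ± 0.18, well above background on 4 IFNT and 2 PBS arrays) and the B cell marker JCHAIN (0.35 ± 0.05) rose. The erythroid marker EPB42 (-0.96 ± 0.08) fell, and no other marker of the T and NK, B cell or platelet and erythroid lists was called. Of the T and NK markers, 9 were well above background on every IFNT array and 8 on every PBS array. Of the monocyte markers, 6 were so with IFNT and 7 with PBS, and of the B cell markers 3 with IFNT and 3 with PBS. The part of these cells in the fall of CXCR4 and PTAFR was not tested.

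Neither receptor was measurable in BES. CXCR4 gave intensities of 4.329, 11.13 and 3.789 with IFNT and 3.057, 2.52 and 4.892 with PBS, and none was well above background. PTAFR gave 3.51, 2.979 and 3.789 with IFNT and 3.057, 2.52 and 4.892 with PBS. All 6 PTAFR values, and 4 of the CXCR4 values, are the substitute that the software writes for a spot at background. No fold change with IFNT is therefore given for BES. Without the filter on dim probes, limma gave CXCR4 a log2 change of 0.74 ± 0.45 (adjusted p = 0.464) and PTAFR 0.00 ± 0.24 (adjusted p = 0.995), both on those values. Among the 11309 probes tested in BES, 3.66% were called.

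Granulocytes held far more of both transcripts than BES, with BES taken at the lowest signal called well above background on each array. CXCR4 was at least 1770-fold higher in granulocytes with IFNT and at least 7210-fold higher with PBS. PTAFR was at least 109-fold higher with IFNT and at least 159-fold higher with PBS. The limma fits, which set granulocyte levels against BES values at background and not against these bounds, gave adjusted p-values of 2e-13 (IFNT) and 2.8e-14 (PBS) for CXCR4 and of 9.4e-15 (IFNT) and 5.2e-15 (PBS) for PTAFR. Both genes passed the filter through granulocytes alone. All granulocyte arrays shared 1 slide and all BES arrays another, so the effects of slide and cells cannot be told apart. Of the probes, 47.6% of 12046 were called higher in granulocytes with IFNT and 46.7% with PBS. With normexp background correction the bounds fell to log2 values of 8.55 (CXCR4 with IFNT), 10.58 (CXCR4 with PBS), 4.67 (PTAFR with IFNT) and 5.16 (PTAFR with PBS), against 10.79, 12.82, 6.77 and 7.32. Being well above background on all 8 granulocyte arrays and on no BES array was uncommon, at 409 probes (2.69%).

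For both genes, granulocytes with IFNT thus stood below granulocytes with PBS and above BES, and within BES the IFNT and PBS samples have no order. The limma contrast of the IFNT response in granulocytes minus that in BES was -2.76 ± 0.42 for CXCR4 (adjusted p = 0.00038) and -0.55 ± 0.22 for PTAFR (adjusted p = 0.094). It sets measured changes against background values, so neither its size nor its direction is a measured difference between responses. In that contrast 26.5% of 12046 probes were called.

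Of the chemokine receptors besides CXCR4, several others also fell in granulocytes. Of 16 with a probe, 10 were tested, CXCR4 included: 5 fell, 1 rose, and the median log2 change was -0.26, against -0.05 over all 4964 genes tested, of which 26.3% fell and 18.1% rose. CCR3, the eotaxin receptor of eosinophils, averaged -1.07 ± 0.13 with IFNT and 0.27 ± 0.08 with PBS, a log2 change of -1.34 ± 0.07 (adjusted p = 1.6e-06). CXCR1, a receptor of CXCL8 on neutrophils, was at 6.30 ± 0.05 with IFNT and 6.53 ± 0.05 with PBS and changed by -0.23 ± 0.05 (adjusted p = 0.0034). The atypical receptor CCRL2 changed by -0.37 ± 0.08 and CCR1 by -0.61 ± 0.18 (adjusted p = 0.0044 and 0.022). The CCR1 call was lost on leaving out any 1 of 4 samples (IFNT 1 or 3, PBS 2 or 4). CXCR1 lost its call in a fit over all 14 arrays.

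PTAFR belongs to a list of receptors of other attractants. Of 6 tested, PTAFR included, 4 fell and none rose, with a median log2 change of -0.51, against 26.3% of all genes lower. Without PTAFR that is 3 of 5. GPR84, a receptor of medium-chain fatty acids, averaged -1.72 ± 0.29 with IFNT and -0.26 ± 0.38 with PBS, a change of -1.46 ± 0.20 (adjusted p = 0.00048). The receptors of complement C5a changed by amounts close to that of PTAFR, C5AR2 by -0.55 ± 0.06 (adjusted p = 0.00013) and C5AR1 by -0.47 ± 0.08 (adjusted p = 0.0017). The leukotriene B4 receptor LTB4R had a change of -0.09 ± 0.12 and the nucleotide receptor P2RY2 of -0.11 ± 0.11, neither past the threshold.

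The ligands of CXCR4 showed no call. CXCL12 was at -2.30 ± 0.06 with IFNT and -2.19 ± 0.08 with PBS in granulocytes (change -0.11 ± 0.05, adjusted p = 0.15). In BES it was at -7.19 with IFNT and -6.48 with PBS, well above background on all 6 arrays, with a change of -0.71 ± 0.23 (adjusted p = 0.13). The other ligands, HMGB1 as a partner of CXCL12 and the cytokine MIF, had granulocyte changes of -0.13 ± 0.07 and 0.00 ± 0.10. ACKR3, the scavenging receptor of CXCL12, was not analysed here.

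Genes that desensitise CXCR4 or carry it to degradation moved both ways, in shares near those of all genes. Of 12 tested, 3 fell and 2 rose, with a median log2 change of -0.14, against 26.3% and 18.1% of all genes. RGS16, which shortens G protein signals, changed by -0.59 ± 0.11 (adjusted p = 0.0023). ITCH, the ligase that ubiquitinates CXCR4 in human cells, changed by -0.22 ± 0.06, and VPS4B, an ATPase of endosomal sorting, by -0.22 ± 0.06 (adjusted p = 0.011 and 0.016). The receptor kinase GRK3 rose by 0.32 ± 0.09 (adjusted p = 0.024), whereas its relative GRK2 had a change of -0.24 ± 0.09 that did not pass (adjusted p = 0.064). VPS4A was well above background on all IFNT and no PBS arrays, at least 2.46-fold higher with IFNT. It passed the filter through the IFNT arrays alone, the adjusted p of its call (0.013) rests on PBS values at background, and with normexp correction its fitted change was 0.67 log2, below that bound. The GRK3 call was lost with no filter on dim probes, in a fit over all 14 arrays and without IFNT sample 2 or 4. With quantile normalization the VPS4B call was lost.

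Of 9 transcription factors listed as reported to act on CXCR4 in other species, 4 had a probe and were tested. Of these 2 fell and none rose, against 26.3% of all genes lower and 18.1% higher, a count too small to read further. The glucocorticoid receptor NR3C1 changed by -0.42 ± 0.06 (adjusted p = 0.00058) and the NF-kB subunit NFKB1 by -0.54 ± 0.16 (adjusted p = 0.026). The NFKB1 call was lost with no filter on dim probes and in a fit over all 14 arrays. It was also lost without any 1 of 4 samples (IFNT 1, 3 or 4, PBS 2). HIF1A, the hypoxia factor, had a change of 0.11 ± 0.05 and TSC22D3, a glucocorticoid target, of 0.30 ± 0.15, neither past the threshold.

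Enzymes that make or break down PAF, the ligand of PTAFR, moved both ways, in a list too small to read its count further. Of 7 tested, 1 fell and 1 rose, with a median of -0.11, against 26.3% lower, 18.1% higher and a median of -0.05 over all genes. PAFAH1B1, a subunit of an intracellular PAF acetylhydrolase that also binds dynein, changed by -0.52 ± 0.06 (adjusted p = 0.00012). PLA2G4A, the phospholipase that frees the PAF precursor, rose by 0.28 ± 0.08 (adjusted p = 0.017), a call lost with normexp correction. PAFAH1B2, PAFAH1B3, PAFAH2 and GNPAT had changes of 0.10 ± 0.05, -0.12 ± 0.08, -0.11 ± 0.05 and -0.27 ± 0.14, none past the threshold.

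Downstream of both receptors, 2 of 12 tested genes of G protein signalling fell and none rose, with a median of -0.09. Over all genes tested, 26.3% fell and 18.1% rose, with a median of -0.05, and the list is too small to read its count further. GNB1, a G protein beta subunit, changed by -0.43 ± 0.05 (adjusted p = 0.00012). The changes of GNG2, GNAI2, RAC2 and PAK1, from -0.13 to -0.09, did not pass.

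Adhesion genes were split. Of 17 tested, 6 rose and 3 fell, with a median of -0.03, against 18.1% of all genes higher and 26.3% lower. ICAM1, a ligand of beta2 integrins, was at 1.06 ± 0.14 with IFNT and 0.13 ± 0.18 with PBS (change 0.93 ± 0.10, adjusted p = 0.00013). CD47 rose by 0.25 ± 0.05 and CEACAM1 by 0.21 ± 0.05 (adjusted p = 0.0053 and 0.0082). FUT4, which fucosylates selectin ligands, was well above background on 3 IFNT arrays and 1 PBS array (fitted change 1.45 ± 0.31, adjusted p = 0.0049), and its fitted change was 0.33 with normexp correction. The sialyltransferase ST3GAL6 changed by -0.56 ± 0.06 (adjusted p = 9.5e-05) and the junctional adhesion protein JAML by -0.24 ± 0.05 (adjusted p = 0.0045). Without scaling between arrays, a setting added after the data were seen, the calls of CD47, CEACAM1, JAML, ITCH, VPS4B, CXCR1, GRK3 and PLA2G4A were lost.

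In BES, 1 of the tested genes of these lists was called, the atypical chemokine receptor ACKR4, against 2.29% of probes called higher there. It was well above background on all 3 IFNT arrays and no PBS array, at least 1.34-fold higher with IFNT. It passed the filter through the IFNT arrays alone, so its call rests on PBS values at background.

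**Figure D3:**
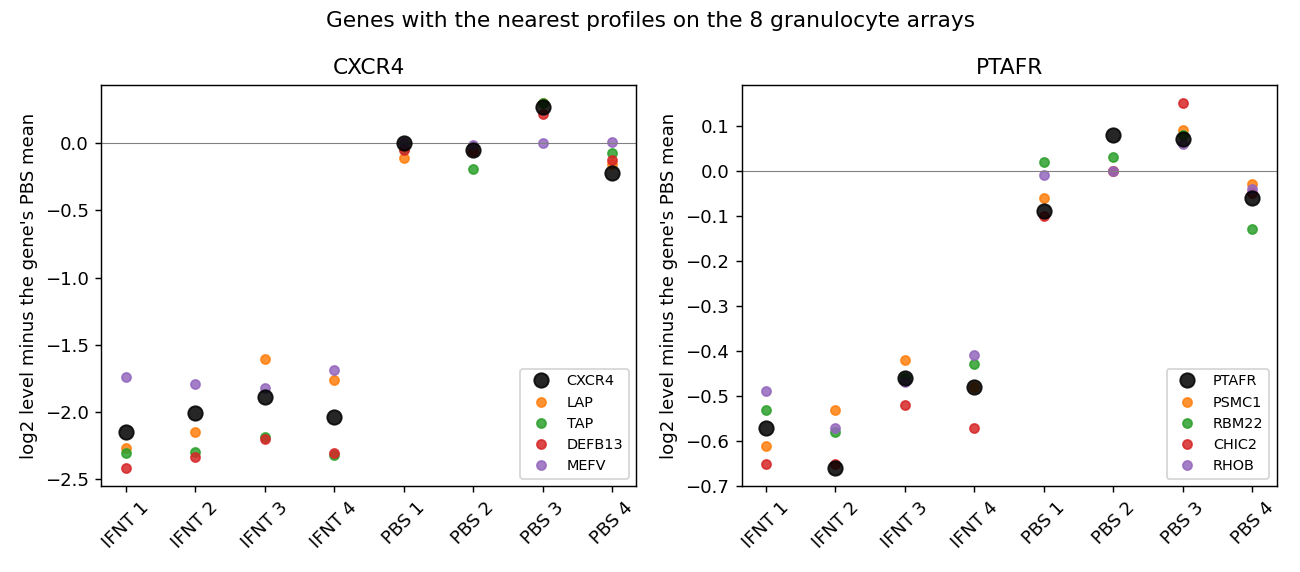
Log2 level minus the gene's mean over the 4 PBS arrays, on each granulocyte array, for CXCR4 (left, black) and PTAFR (right, black) and the 4 genes with the nearest profile to each. All 5 genes of each panel lie lower on each IFNT than on each PBS array; the vertical scales of the panels differ.

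The profiles nearest to each receptor over the 8 granulocyte arrays were sought among 4959 genes, by the root mean square difference of log2 levels after each gene's PBS mean was subtracted. Nearest to CXCR4 were the beta-defensin genes LAP (0.162), TAP (0.199) and DEFB13 (0.213), antimicrobial peptides of cattle, and MEFV (0.243), which encodes the inflammasome protein pyrin. Their log2 changes were -1.95 ± 0.16 for LAP, -2.28 ± 0.10 for TAP, -2.32 ± 0.08 for DEFB13 and -1.76 ± 0.04 for MEFV. Beta-defensins form a family of similar sequences, so their probes may read each other's transcripts. The MEFV probe is named only by a stated similarity to that gene, and its description reads unknown. Nearest to PTAFR were the proteasome ATPase PSMC1 (0.0603), the splicing factor RBM22 (0.061), CHIC2 (0.0616) and the small GTPase RHOB (0.063), with log2 changes of -0.51 ± 0.06, -0.50 ± 0.06, -0.60 ± 0.06 and -0.49 ± 0.05. The likeness rests mostly on the step between PBS and IFNT, which the nearest genes share.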

How the data were processed

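Per the file headers, the authors' scanner files were made with Agilent Feature Extraction 9.5 and hold 1 fluorescence intensity per spot, corrected for background, with a substitute for spots at background. The authors' deposited value table holds log2 values, which equalled the log2 processed intensity minus 1 constant per array, not centred by probe. It served as an alternative. Per the file headers, the same software gave each spot a p-value against background.

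Log2 processed intensities were scaled by subtracting, on each array, the 75th percentile over non-control probes, without spots flagged as non-uniform or population outliers. A probe was tested if well above background on at least 4 granulocyte or 3 BES arrays. Treatments were tested in limma (3.58.1, under R 4.3.3), 1 fit per cell type, with Benjamini-Hochberg adjustment over all tested probes and a threshold of 0.05. For comparisons of cell types 1 fit held all 14 arrays. The code was tested on simulated data. The number of arrays limits precision.

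Genes were named through the RefSeq table of ARS-UCD2.0: 7048 probes had a symbol and 8160 had none. The members and lists were chosen with earlier results of these data known. The text names both receptors, CXCL12, ACKR3, up to 6 tested genes per list by smallest p, and the 4 nearest profiles of each receptor; each gene is read by its tested probe of highest mean level. This rule also picked 2 genes that are counted but not reported here. ACKR4 was named after its value was seen. Bounds use the mean, per array, of the higher of the lowest signal well above background and the probe's own. The files give no genome build, so no position is stated.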

Additional observations from a re-analysis of the deposited data

Results flagged for a closer look

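In 10 sets of 4 granulocyte arrays of a named gene, 1 array stood apart from the others by Dixon's criterion for the largest gap over the range, which chance meets in about 1 of 20 sets; CXCR4 and PTAFR had no such array. With IFNT these were CXCL12 in sample 2 (log2 level -2.38, others -2.28 to -2.26), GRK2 in sample 2 (-2.57, others -2.65 to -2.64), HIF1A in sample 4 (1.26, others 1.38 to 1.39), ST3GAL6 in sample 1 (-1.27, others -1.12 to -1.10), JAML in sample 1 (6.28, others 6.41 to 6.42), RAC2 in sample 1 (5.67, others 5.71) and TAP in sample 3 (-2.29, others -2.42 to -2.40). With PBS they were JAML in sample 4 (6.55, others 6.64 to 6.66), GNB1 in sample 1 (3.24, others 3.10 to 3.11) and GNG2 in sample 1 (4.05, others 4.23 to 4.26).

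The IFNT response differed between granulocytes and BES, by the limma contrast of the responses, for 17 of the 34 named genes measured on all BES arrays, against 26.5% of all probes. Most of these genes were named for a small p in granulocytes or for likeness to a receptor that fell. The log2 response in granulocytes minus that in BES was -0.86 for NR3C1, -0.73 for PAFAH1B1, -1.60 for GPR84, -0.85 for ST3GAL6, 1.07 for ICAM1, -0.49 for JAML, 1.35 for FUT4, 0.41 for CD47, 0.23 for CEACAM1, -0.34 for GNB1 and -0.40 for GNAI2. Among the nearest profiles it was -1.89 for DEFB13, -1.65 for MEFV, -0.30 for PSMC1, -0.53 for RBM22, -0.63 for CHIC2 and -0.70 for RHOB.

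The CXCR4 spot of BES IFNT sample 2 had an intensity of 11.1, against 2.52 to 4.89 on the BES PBS arrays. It was not called well above background, although the software's own p against background was 3.31e-15. Of the 3714 probes not well above background on that array, 8.7% were at least as bright.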

How the results depend on the processing

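The falls of CXCR4 (-2.10 to -1.93) and PTAFR (-0.62 to -0.50) in granulocytes kept their direction and call under all 20 alternatives. The excess fall of CXCR4 stayed at -1.48 with the replicate block, with an exact p of 0.12. A correlation was also taken between samples with the same replicate number, but not of their log2 levels themselves. It was -0.118 to 0.203 in granulocytes and -0.0129 to 0.0593 in BES. These values cannot decide whether the numbers pair the samples, since the labels do not say what a replicate is. The block changed no other call of the receptors. The contrast of responses for PTAFR sets granulocyte changes against BES values at background, so passing or not is no measured difference. It passed with normexp correction (-0.33) and quantile normalization (-0.52). It ranged over -0.78 to -0.42 with 1 replicate left out, passing without BES PBS sample 3 or BES IFNT sample 2. Probes called in BES numbered 414, but 189 with no filter on dim probes, 1011 with an intensity trend and robust prior, 149 with array row as a covariate, and 183 to 534 with 1 replicate left out. Higher and lower BES calls were 259 and 155, but 294 and 322 with normexp, 248 and 222 with median scaling, and 245 and 242 with scaling on probes above background everywhere (added after the data were seen). They were 432 and 579 with the trend and robust prior, 163 and 26 with no filter, and 129 and 20 with array row, and between 50.4% and 85.6% were higher with 1 replicate left out, against 62.6%. Granulocyte calls numbered 4633, but 2211 with no scaling between arrays (also added later), and 4043 to 4669 with 1 replicate left out. Uncalled changes turned sign with normexp for GNPAT (0.03) and P2RY2 (0.01). That of MIF was -0.03 with quantile normalization, -0.02 with median scaling, -0.08 with no scaling, and -0.09 to 0.06 with 1 replicate left out. No alternative could give a BES change of either receptor with the filter kept. In these cases the cause was not tested. Counts of list members moved by over 1.5 times in 23 cases. Without scaling, 2 adhesion genes rose and 1 fell (6 and 3 in the report), and desensitisation genes counted 1 each way (2 rose and 3 fell in the report). Falling desensitisation genes numbered 6 with median scaling or without PBS sample 3. The remaining moves were by 1 gene. Of the other 1235 values of named genes and lists, 1168 held. A gene's value held if it kept its direction and side of the threshold, and a list count if it moved by at most 1.5 times. Signal at background in BES limits both receptors there to bounds.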
